A study of Homo sapiens with 6 samples.

Results

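YAP1 and WWTR1 (the gene for TAZ), their DNA-binding partner TEAD1 and 7 genes that YAP/TAZ control or that act on them were examined. Poly(A) RNA was sequenced from HaCaT, a human keratinocyte line that became immortal on its own in culture. The 10 genes were taken by name from a deposited table of 57281 genes, where each name occurs in 1 row, and all 10 passed the filter on low values that left 17296 genes for testing. Every culture, the controls included, had received TGF-β1 at 10 ng/ml for 24 h. The control group (3 biological replicates) received no silymarin. The silymarin group (3 biological replicates) also received silymarin, an extract of milk thistle, at 31.25 µg/ml. Cells without TGF-β1 were not analysed here, so each value describes silymarin on top of TGF-β1. A single cell line was used, and RNA cannot show where the YAP and TAZ proteins lie in the cell.

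YAP and TAZ are transcriptional coactivators that read cell density, cell shape and stiffness. The Hippo kinases MST1/2 and LATS1/2 phosphorylate them, which holds them in the cytoplasm or leads to their breakdown. When the kinases are quiet, YAP and TAZ enter the nucleus and act mainly through TEAD proteins on genes such as CTGF (now CCN2), CYR61 (now CCN1), ANKRD1 and AXL. They also raise LATS2 and AMOTL2, which restrain them in turn, while the LIM protein AJUBA binds LATS kinases and limits their activity. In epidermis YAP is known for its part in the proliferation of basal keratinocytes, and CTGF is a well-known target of TGF-β as well.

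TEAD proteins recognise the core letters CATTCC, which read GGAATG on the other strand. These letters were looked for on both strands in the 250 bases before the start of each RefSeq promoter (GRCh38.p14), where 11.9% of 35116 promoters hold at least 1 match and 0.94% hold 2 or more. Of the members, 8 had 12 promoters in that table, and 6 of the 12 promoters, from 6 genes, held a match. CTGF had 3 matches, shown in capitals in the 249 bases before its start at chr6:131951374-131951622 (minus strand), because this is the arrangement of sites for which the gene is used as a YAP/TAZ reporter.
CTGF: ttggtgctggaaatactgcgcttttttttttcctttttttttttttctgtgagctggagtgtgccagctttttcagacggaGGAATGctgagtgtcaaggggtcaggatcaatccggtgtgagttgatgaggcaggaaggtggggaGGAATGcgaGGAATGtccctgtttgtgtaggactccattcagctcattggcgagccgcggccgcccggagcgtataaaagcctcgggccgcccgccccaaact

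ANKRD1 and AJUBA, the 2 members that passed the threshold given further on, and YAP1 itself held 2, 1 and 1 matches. Each match is printed below with the bases around it, matched letters in capitals. Starts are those of RefSeq. That of ANKRD1 lies inside the gene bounds of GENCODE 29 given further on, and so does its match nearer the start. The ANKRD1 matches lie at chr10:90921290-90921319 and chr10:90921198-90921227 (minus strand), the AJUBA match at chr14:22976884-22976913 (minus strand), before the internal one of its 2 starts, and the YAP1 match at chr11:102110273-102110302 (plus strand).
ANKRD1, 220 bases before the start: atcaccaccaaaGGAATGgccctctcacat
ANKRD1, 128 bases before the start: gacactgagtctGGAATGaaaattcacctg
AJUBA, 59 bases before the internal start: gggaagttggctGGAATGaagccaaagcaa
YAP1, 162 bases before the start: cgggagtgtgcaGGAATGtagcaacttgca

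AMOTL2 and AXL held 1 match each, before the start that lies further inside the gene, and none before their other start. None of these letters stood in the windows of WWTR1 or LATS2. The ANKRD1 window also held 1 match to the AP-1 letters TGANTCA (6.57% of all promoters) and 1 to the SMAD letters CAGACA or TGTCTG. SMAD letters stood in 4 of the 12 promoters, 1 each of ANKRD1, AJUBA (at its other start), AMOTL2 and AXL, beside 13.6% of all promoters. A match of letters is a description and does not show that a protein binds there.

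The values below are normalized read counts, that is, reads per gene divided by 1 size factor per library, and they are given for replicates 1, 2 and 3 of each group in that order. Reads recovered from the table came to between 20240542 and 30279391 in the 5 libraries where they could be recovered. All 10 keratinocyte markers examined were measured in both groups, their summed level going from 392291 to 398611 down to 246595 to 277078. With silymarin 9 of the 10 fell at a limma adjusted p under 0.05, beside 18.2% of all tested genes. KRT5 and KRT14 were among the 9, while TP63 did not pass (log2 fold change -0.10, limma adjusted p = 0.216). Of 9 fibroblast markers, COL1A1 alone averaged at least 10 normalized counts, and it fell from 3386 ± 101 to 1903 ± 171 (SD, n = 3; limma adjusted p = 4e-07), while DCN and THY1 were at 0 in all 6 libraries. The 6 melanocyte markers summed to 219 to 232 without and 296 to 364 with silymarin, and 2 of them averaged at least 10 normalized counts. Of these, MITF was higher 1.69-fold (limma adjusted p = 9.3e-05), going from 146 ± 8.04 to 247 ± 27.4 (SD, n = 3). PMEL did not pass, at 75.8 ± 2.90 and 69.4 ± 11.1 (limma adjusted p = 0.511). TYR was at 0. The 5 endothelial markers in the table summed to 141 to 149 and 212 to 265. CDH5 was higher 4.53-fold (limma adjusted p = 9.4e-08), going from 34.1 ± 4.64 to 157 ± 8.27 normalized counts (SD, n = 3). VWF did not pass, at 93.0 ± 2.99 and 71.3 ± 18.8 (limma adjusted p = 0.0801). ERG was lower, at 0.402 of its control level (limma adjusted p = 0.00936). With silymarin ERG reached 10 normalized counts only in replicate 2 (5.47, 10.2 and 5.19), so it was tested through the control group. Of the leukocyte markers, CD14 was higher 1.67-fold (limma adjusted p = 0.0492), at 13.1 ± 2.15 normalized counts without and 22.7 ± 5.79 with silymarin (SD, n = 3). Whether these shifts play a part in the results on the YAP/TAZ genes was not tested. In bulk RNA, fewer cells of a kind and less RNA per cell cannot be told apart. Silymarin replicate 2 stood apart: its deviation from the other silymarin libraries had a Spearman correlation of -0.56 with GC content over 16828 genes, as a description over genes that are not independent. Results are therefore also given without it where it matters.

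The comparison asked whether silymarin shifted the RNA of the YAP/TAZ module in keratinocytes exposed to TGF-β1, and most of the module moved little. In limma's fit over all tested genes, with Benjamini-Hochberg adjustment and a threshold of 0.05, ANKRD1 rose, AJUBA fell and 8 of the 10 genes did not pass. Over all tested genes 16.0% were called higher and 18.2% lower, 34.2% together, and 1 member in each direction is near those shares. The median absolute log2 fold change was 0.13 over the members and 0.18 over all tested genes. The members' signed median was -0.052, beside 0.0044 for all tested genes, with 4 members above 0 and 6 below. Groups of 3 libraries did not overlap for 7 members (3 higher, 4 lower with silymarin), beside 47.1% of all tested genes (23.1% higher, 24.1% lower). At an unadjusted limma p under 0.05 there were 4 members, beside 43.5% of all tested genes. For 8 members, the 95% interval of the fold change lay within 1.5-fold in either direction, and the other two were ANKRD1 and AJUBA.

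**Figure D1:**
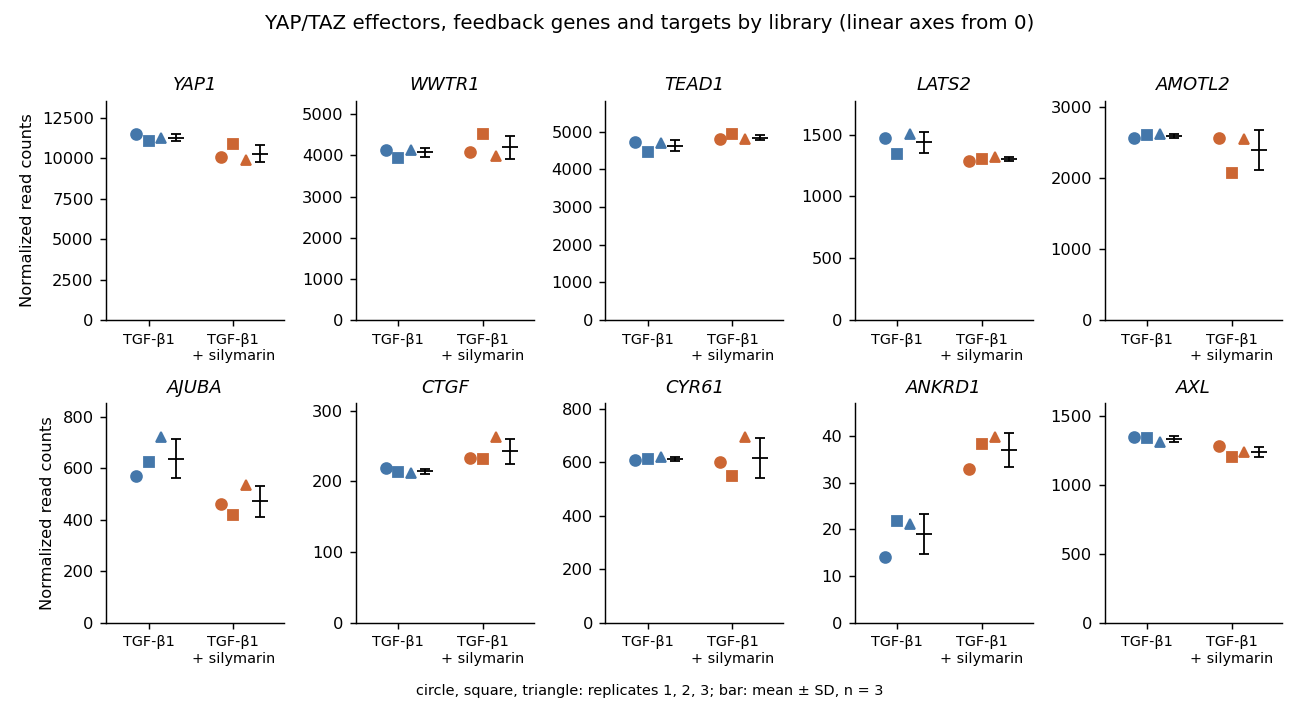
Normalized read counts (linear axes from 0) of the 10 genes in each of the 6 libraries, with TGF-β1 alone in blue and TGF-β1 plus silymarin in orange; symbols mark replicates and bars the mean ± SD (n = 3). ANKRD1 lies between 14.1 and 21.7 without and 32.8 and 39.8 with silymarin and AJUBA is lower in all 3 silymarin libraries, while the other genes shift by little.

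Among the effectors, YAP1 (chromosome 11, 102110461 to 102233423, GRCh38, plus strand) had 11474, 11071 and 11220 normalized counts in the control libraries and 10077, 10860 and 9906 with silymarin. All 3 silymarin libraries were below all 3 controls, with replicate 2 nearest to them. The group means were 11255 ± 204 and 10281 ± 509 (SD, n = 3), a log2 fold change of -0.13 (SE 0.048, 95% interval -0.24 to -0.027) that did not pass the threshold (limma adjusted p = 0.0503). YAP1 passed it without silymarin replicate 2 (log2 fold change -0.17, limma adjusted p = 0.000146) and once trends with GC content and length were removed per library (the GC correction; -0.15, limma adjusted p = 0.000426).

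WWTR1 (chromosome 3, 149517235 to 149736714), which encodes TAZ, had 4142, 3945 and 4130 normalized counts without silymarin and 4093, 4516 and 3977 with it. The groups overlapped, and silymarin replicate 2 was the highest library. The log2 fold change was 0.041 (SE 0.055, 95% interval -0.078 to 0.16; limma adjusted p = 0.608). In log2 terms YAP1 exceeded WWTR1 by 1.47 ± 0.024 in the control libraries and by 1.29 ± 0.026 with silymarin (SD, n = 3, normalized counts). This ratio did not overlap between the groups, and the two-sided exact permutation test gave p = 0.1, the smallest that 3 against 3 allows. Per kilobase of exons YAP1 made up 78.7% ± 0.275 of the summed YAP1 and WWTR1 level in the controls and 76.6% ± 0.322 with silymarin (SD, n = 3).

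TEAD1 (chromosome 11, 12674591 to 12944483), the DNA-binding partner among the members, had 4734, 4458 and 4689 normalized counts without and 4802, 4934 and 4803 with silymarin. The silymarin libraries all lay above the controls, but by a log2 fold change of only 0.067 (SE 0.047, 95% interval -0.033 to 0.17; limma adjusted p = 0.293). Its 3 paralogues went the other way. TEAD2 went from 880 ± 19.9 to 589 ± 5.06 normalized counts (SD, n = 3), a fall of 0.58 on the log2 scale (limma adjusted p = 6.3e-06). TEAD3 fell by 0.33 (limma adjusted p = 0.000993) and TEAD4 fell by 0.29 (limma adjusted p = 0.046). The TEAD4 call was lost in 10 of 17 other settings, among them leaving out TGF-β1 replicate 1, 2 or 3 (adjusted p = 0.0529, 0.155 and 0.136) or silymarin replicate 1 (adjusted p = 0.185).

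The difference between TEAD1 and each paralogue was tested as a ratio per library, an analysis chosen after the values were seen. TEAD2 fell relative to TEAD1 by 0.65 on the log2 scale in the group means, TEAD3 by 0.39 and TEAD4 by 0.36, with no overlap between groups in any of the ratios. Each two-sided exact permutation test gave p = 0.1, the smallest possible, and 0.1 after Benjamini-Hochberg adjustment over all 6 ratios computed. Per kilobase of exons, TEAD1 contributed 29.9% ± 0.908 of the summed level of the TEAD genes in controls and 37.0% ± 1.56 with silymarin (SD, n = 3), while the sum went from 1503 ± 16.6 to 1276 ± 34.2 normalized counts per kilobase. TEAD3 had the highest level per kilobase of the 4 in both groups, although in silymarin replicate 2 TEAD3 and TEAD1 were close, at 484 and 480. This order depends on the exon lengths used, 3046 bases for TEAD3 and 10279 for TEAD1. Before division by length, TEAD1 stood above TEAD3 in the controls, at 4627 ± 148 against 2020 ± 56.9 normalized counts (SD, n = 3).

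The vestigial-like proteins bind TEADs in competition with YAP and TAZ. VGLL3 and VGLL4 fell by 0.20 each on the log2 scale (limma adjusted p = 0.0192 and 0.0114). In the list of other TEAD and vestigial-like genes, 5 of 5 tested genes fell and 0 rose, beside 18.2% lower and 16.0% higher over all tested genes, with a median log2 fold change of -0.29. VGLL3 missed the threshold without TGF-β1 replicate 1 or 3 (adjusted p = 0.108 and 0.0592) and without silymarin replicate 1 or 3 (0.0801 and 0.0644). The number that fell was 2 when TGF-β1 replicate 1 was left out, where 14.3% of all genes were called lower. It was 3 when any of TGF-β1 replicate 2, TGF-β1 replicate 3 and silymarin replicate 1 was left out (13.6%, 13.7% and 16.2% of all genes). It was also 3 by edgeR (14.4%) and by DESeq2 (10.9%) on reads of 5 libraries. VGLL1 was too low to be tested, at 10.5 ± 0.841 normalized counts without and 4.58 ± 2.16 with silymarin (SD, n = 3).

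**Figure D2:**
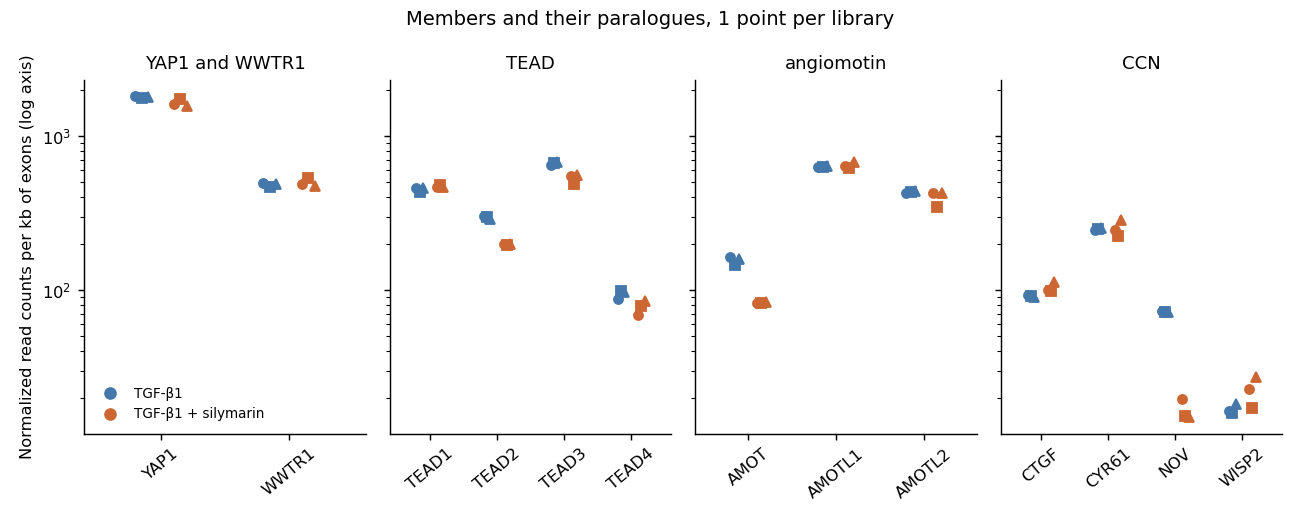
Normalized read counts per kilobase of exons (log axis) for YAP1 and WWTR1, the TEAD genes, the angiomotin genes and the 4 CCN genes with a tested row, 1 point per library; blue is TGF-β1 alone, orange TGF-β1 plus silymarin. TEAD2, AMOT and NOV shift down in all 3 silymarin libraries while TEAD1, AMOTL1 and CYR61 stay near their control levels.

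Of the genes that feed back on YAP and TAZ, LATS2 (chromosome 13, 20973032 to 21061547), a kinase that phosphorylates them, had 1470, 1344 and 1503 normalized counts without silymarin and 1286, 1299 and 1316 with it. Every silymarin library was below every control, TGF-β1 replicate 2 being the control nearest to them. The log2 fold change was -0.14 (SE 0.058, 95% interval -0.27 to -0.019; limma adjusted p = 0.0712). LATS2 passed without TGF-β1 replicate 2 (-0.19, limma adjusted p = 0.0478), without silymarin replicate 2 (-0.14, limma adjusted p = 0.0242) and under the GC correction (-0.12, limma adjusted p = 0.0461). In 14 of 17 other settings LATS2 did not pass. The adjusted p was 0.0971 to 0.274 when any other single library was left out, 0.26 by edgeR and 0.431 by DESeq2 on reads of 5 libraries. LATS1, its paralogue, had a log2 fold change of 0.10 (limma adjusted p = 0.123).

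AMOTL2 (chromosome 3, 134355874 to 134375479) encodes an angiomotin-like protein that binds YAP and holds it at junctions. It had 2563, 2599 and 2616 normalized counts in the controls and 2566, 2076 and 2555 with silymarin. Silymarin replicate 2 was the low library, and the others lay close together. The log2 fold change was -0.12 (SE 0.073, 95% interval -0.28 to 0.038; limma adjusted p = 0.231) with that library and -0.018 (limma adjusted p = 0.73) without it. Its relative AMOT, in contrast, went from 1323 ± 84.4 to 705 ± 4.41 normalized counts (SD, n = 3), a fall of 0.91 on the log2 scale (limma adjusted p = 1.4e-07). AMOTL1 had a log2 fold change of 0.024 (limma adjusted p = 0.741). AMOT fell relative to AMOTL2 by 0.79 in the group means of the log2 ratio, without overlap (two-sided exact permutation p = 0.1, the smallest possible, and chosen after the values were seen).

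AJUBA (chromosome 14, 22971174 to 22982642), the LIM protein that binds LATS kinases, had 569, 623 and 722 normalized counts without silymarin and 462, 417 and 537 with it. All 3 silymarin libraries lay below the controls, although the libraries within each group differed by more than those of most members. The means were 638 ± 77.6 and 472 ± 60.6 (SD, n = 3), and AJUBA fell by 0.44 on the log2 scale (SE 0.10, 95% interval -0.66 to -0.22; limma adjusted p = 0.00471). It was called lower in all 17 other settings, at adjusted p from 0.000432 to 0.0469 and log2 fold changes from -0.53 to -0.33. The row RP11-298I3.5, on the same strand, shares 50 exon bases with AJUBA in GENCODE 29 and had the same log2 fold change of -0.44, so the counts of this pair are uncertain to that extent. Among 6 related LIM protein genes tested, 2 fell, LIMD1 by 0.26 and TRIP6 by 0.26 (limma adjusted p = 0.0119 and 0.0207), and 0 rose, beside 18.2% lower and 16.0% higher over all tested genes. ZYX (zyxin) and LPP had log2 fold changes of 0.064 and -0.14 (limma adjusted p = 0.562 and 0.0567). The LIMD1 call was lost without silymarin replicate 1 (adjusted p = 0.064), and TRIP6 missed the threshold without the control replicates 2 or 3 in turn (adjusted p = 0.0899 and 0.0627). Without silymarin replicate 2, 2 of the 6 were higher and 3 lower, beside 20.3% and 21.7% of all genes tested there, and ZYX (0.17, limma adjusted p = 0.0013) and LPP (-0.19, limma adjusted p = 0.000168) passed. DESeq2 on reads of 5 libraries called 0 of the 6 in either direction, beside 8.65% higher and 10.9% lower over all its genes.

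Among the target genes, CTGF (chromosome 6, 131948176 to 131951373) encodes a secreted matricellular protein. It had 218, 213 and 211 normalized counts without and 233, 232 and 263 with silymarin. All silymarin libraries lay above the controls, and replicate 3 was the highest. The log2 fold change was 0.18 (SE 0.089, 95% interval -0.015 to 0.37, limma adjusted p = 0.145). CTGF also stayed short of the threshold in all 17 other settings, at adjusted p from 0.0714 to 0.53. In normalized counts the means were 214 ± 3.66 and 243 ± 17.7 (SD, n = 3).

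CYR61 (chromosome 1, 85580761 to 85583962), its close relative in the CCN family, had 606, 610 and 620 normalized counts in the controls and 601, 549 and 694 with silymarin. The silymarin libraries spread on both sides of the tightly grouped controls. Its log2 fold change was -0.00059 (SE 0.082, 95% interval -0.18 to 0.18; limma adjusted p = 0.996), and the sign changed with the setting. The log2 ratio of CTGF to CYR61 went from -1.51 ± 0.039 to -1.33 ± 0.082 (SD, n = 3) without overlap (two-sided exact permutation p = 0.1, the smallest possible). Per kilobase of exons CYR61 stood above CTGF in both groups, at 249 ± 2.87 against 91.6 ± 1.56 normalized counts in the controls.

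Another CCN gene, NOV (now CCN3), had the largest fold change of the family. It went from 193 ± 2.93 to 44.4 ± 7.07 normalized counts (SD, n = 3), a fall of 2.11 on the log2 scale (limma adjusted p = 7.1e-08), and per kilobase from 72.2 ± 1.10 to 16.6 ± 2.65. WISP2 (CCN5) had a log2 fold change of 0.39 (limma adjusted p = 0.073). It was 0.57 without silymarin replicate 2 (limma adjusted p = 0.00256), 0.24 without silymarin replicate 3 (limma adjusted p = 0.273) and 0.42 under the GC correction (limma adjusted p = 0.0297). WISP1 and WISP3 averaged under 1 normalized count in both groups and were not tested.

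ANKRD1 (chromosome 10, 90912096 to 90921276), which encodes a nuclear ankyrin repeat protein best known from muscle, was the scarcest member, with 14.1, 21.7 and 21.2 normalized counts without silymarin and 32.8, 38.2 and 39.8 with it. The groups lay well apart, TGF-β1 replicate 1 being the lowest library. These values rest on 16 to 46 reads per library in the 5 libraries with recovered reads. The means were 19.04 ± 4.25 and 37.0 ± 3.66 (SD, n = 3), and ANKRD1 rose by 0.94 on the log2(value + 1) scale (SE 0.23, 95% interval 0.45 to 1.43; limma adjusted p = 0.0057), or 1.92-fold with an interval of 1.37 to 2.69. DESeq2 on reads of 5 libraries gave a larger fold change without a call (log2 fold change 1.05, adjusted p = 0.0687). In the same ankyrin repeat family ANKRD2 fell by 0.74 (limma adjusted p = 0.00206), and ANKRD23 had a log2 fold change of -0.099 (limma adjusted p = 0.387).

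AXL (chromosome 19, 41219203 to 41261766), a receptor tyrosine kinase of the TAM family, had 1351, 1345 and 1312 normalized counts without silymarin and 1281, 1207 and 1242 with it. The groups did not overlap, but the log2 fold change was only -0.10 (SE 0.054, 95% interval -0.22 to 0.013; limma adjusted p = 0.158). The other TAM genes passed in both directions. TYRO3 fell by 0.49 (limma adjusted p = 2.7e-05), and MERTK, at 18.5 ± 3.30 normalized counts in the controls, rose by 0.69 (limma adjusted p = 0.0263). MERTK missed the threshold when TGF-β1 replicate 1 (adjusted p = 0.0819) or 2 (0.0904), or silymarin replicate 1 (0.0796) or 3 (0.0548), was left out, and with DESeq2 (0.186). Of the ligands, GAS6 fell by 0.28 (limma adjusted p = 0.00129) and PROS1 fell by 1.46, from 21.3 ± 3.01 to 7.32 ± 2.58 normalized counts (SD, n = 3; limma adjusted p = 0.0026). PROS1 reached the filter's 10 normalized counts in all controls, but with silymarin only in replicate 2 (6.56, 10.2 and 5.19). It was thus tested through the control group, and its log2 fold change ran from -1.70 to -0.86 over 16 other settings.

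**Figure D3:**
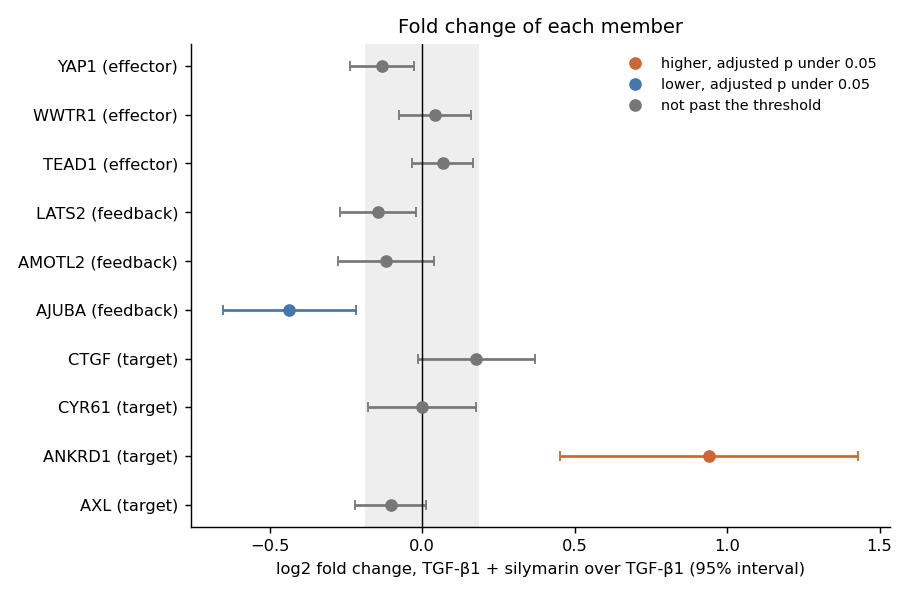
Log2 fold change of each member (TGF-β1 plus silymarin over TGF-β1) with its 95% interval from limma, coloured by call; the grey band spans the median absolute log2 fold change of all tested genes, 0.18, on either side of 0. Only the intervals of AJUBA and ANKRD1 lie wholly outside the band. The label feedback for AJUBA marks its grouping with LATS2 and AMOTL2, although AJUBA limits LATS kinases.

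Within the control group, the members' levels per kilobase of exons ran from YAP1 (1788 ± 32.3 normalized counts per kilobase, SD, n = 3) through WWTR1 (484 ± 13.2), TEAD1 (450.1 ± 14.4) and AMOTL2 (433 ± 4.57) to AXL (259 ± 4.08), LATS2 (258 ± 15.1) and CYR61 (249 ± 2.87). AJUBA (107 ± 13.0), CTGF (91.6 ± 1.56) and ANKRD1 (9.62 ± 2.15) followed. The libraries of TEAD1 and AMOTL2 overlapped, as did those of AXL and LATS2 and of LATS2 and CYR61, so these neighbours cannot be ordered. Lengths were taken as the union of all annotated exons, and a gene whose long exons are little used would appear lower on this scale. The effectors were thus among the most abundant members and the reporter targets CTGF and ANKRD1 the scarcest.

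The upstream kinases changed little at the RNA level. In a list of 16 Hippo kinases and regulators of YAP/TAZ, 1 rose, 2 fell and 13 did not pass, with a median log2 fold change of 0.076. Over all tested genes 16.0% were called higher and 18.2% lower. TAOK3, a kinase upstream of the pathway, rose by 0.20 (limma adjusted p = 0.0114). PTPN14, a phosphatase that binds YAP, fell by 0.51 (limma adjusted p = 4.1e-05), and VGLL4 was the other gene that fell. Without silymarin replicate 2, 4 of the 16 were higher and 5 lower, beside 20.3% and 21.7% of all genes tested there. Under the GC correction 4 were higher and 4 lower, beside 21.4% and 22.2%. VGLL4 missed the threshold without TGF-β1 replicate 1 or 2 (adjusted p = 0.0562 and 0.0595), and TAOK3 without TGF-β1 replicate 3 (0.0601) and by edgeR and DESeq2 on reads of 5 libraries (0.0529 and 0.112).

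A wider list of published YAP/TAZ targets held genes called in both directions. Of 16 genes other than the members, 7 rose, 4 fell and 5 did not pass, beside 16.0% higher and 18.2% lower over all tested genes, with a median log2 fold change of 0.02. NT5E, the ecto-5'-nucleotidase CD73, rose by 1.06 (limma adjusted p = 5.5e-08), from 587 ± 18.5 to 1227 ± 84.2 normalized counts (SD, n = 3). TGFB2, a TGF-β ligand, rose by 0.63 (limma adjusted p = 1e-05) and ASAP1, an Arf GTPase-activating protein, by 0.52 (limma adjusted p = 8.4e-06). On the other side IGFBP3, an IGF-binding protein, fell by 0.83 (limma adjusted p = 1.2e-08), from 8530 ± 134 to 4794 ± 89.6 normalized counts. Beside these, PTPN14 fell, a gene that is also counted in the list of Hippo kinases and regulators. F3, FJX1, FOXF2 and GADD45A rose and CCDC80 and RBMS3 fell, genes named here after their values were seen. Among these, FOXF2 missed the threshold when TGF-β1 replicate 1, 2 or 3 or silymarin replicate 2 or 3 was left out (adjusted p from 0.0635 to 0.15), and with no filter on low values (0.0595). F3 missed it without TGF-β1 replicate 2 (0.0847), TGF-β1 replicate 3 (0.0836) or silymarin replicate 1 (0.0817), and RBMS3 when silymarin replicate 1 (0.0784) or TGF-β1 replicate 3 (0.111) was dropped. The counts ran from 5 to 7 higher and 3 to 4 lower in the other limma settings and by edgeR, and DESeq2 on reads of 5 libraries called 4 higher and 3 lower.

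**Figure D4:**
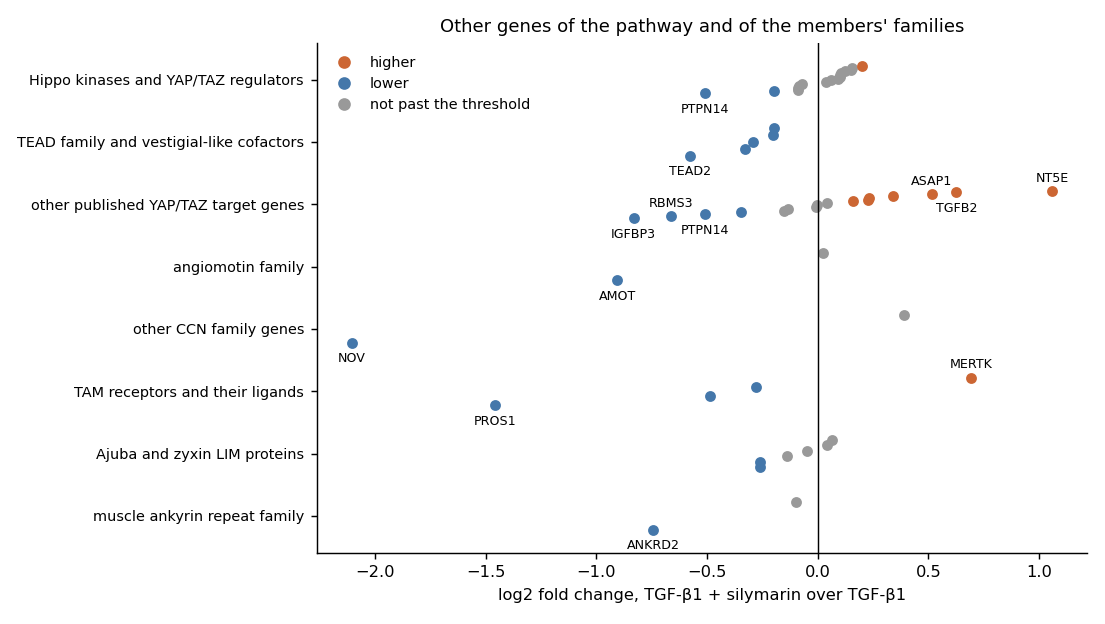
Log2 fold change (TGF-β1 plus silymarin over TGF-β1) of each tested gene in the lists of pathway and family genes, coloured by call; genes beyond 0.5 in either direction are named. TEAD and vestigial-like genes lie below 0, whereas the other YAP/TAZ targets spread from -0.83 for IGFBP3 to 1.06 for NT5E.

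Beside RP11-298I3.5, which averaged 562 ± 47.0 normalized counts in the controls (SD, n = 3) against 638 for AJUBA, other rows that share exon bases with a member were lower. The antisense rows over YAP1 and WWTR1, RP11-864G5.3 and WWTR1-AS1, averaged 65.6 ± 19.7 and 28.8 ± 1.81 normalized counts in the controls (SD, n = 3), those over CTGF and AXL averaged under 10, and RPL39P5, which overlaps AMOTL2 on the same strand, averaged 42.3 ± 5.33. The libraries were made with a stranded kit, but how strand was treated in counting is not known here.

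**Figure D5:**
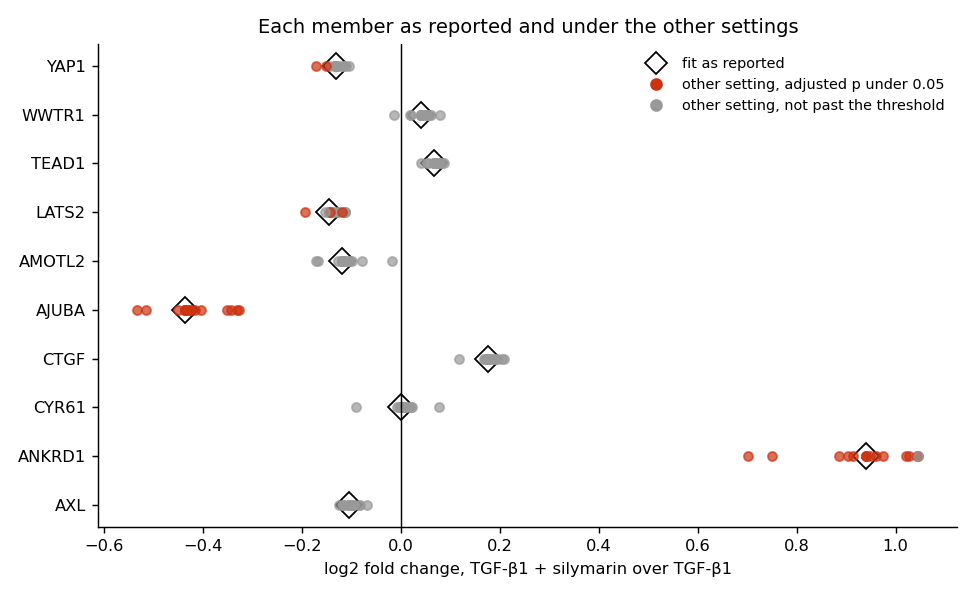
Log2 fold change of each member as reported (open diamonds) and under each other setting (dots, red where the adjusted p was under 0.05). AJUBA lies between -0.53 and -0.33 and is called in every setting, ANKRD1 between 0.70 and 1.05 and called in 15 of the 16 settings that test it (not by DESeq2), YAP1 and LATS2 are called in 3 settings each, and CYR61 lies on both sides of 0.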

How the data were processed

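RNA of 6 HaCaT libraries was sequenced after poly(A) selection with a stranded Illumina kit, per the labels' protocols. Tools named without roles in the submitters' processing notes are TopHat2 2.1.1, Subread 1.5.2, featureCounts, DESeq2, cutadapt 1.15 and bcl2fastq 2.18.12. Build, annotation and strand setting: not given in the sources used here. What the authors deposited is a signal, reads per gene over 1 size factor per library. In each column 100% of values were whole multiples of 1 step (tolerance 1e-06 per read), and the reads so recovered entered count models for 5 libraries (the step of TGF-β1 replicate 3 lay too near 1 to be accepted).

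The 17296 genes that reached 10 normalized counts in 3 or more libraries were fitted with limma 3.58.1 (trended prior, group as the only term, R 4.3.3) on log2(value + 1), which understates changes of low genes, with Benjamini-Hochberg adjustment over all of them. P-values measure the spread between replicates, which the series calls biological. Ratios were tested by exact permutation (SciPy 1.17.1). On simulated data limma recovered 94 of 100 changes of 1.5-fold and 100 of 100 of 2-fold, with 4.43% of its calls false. Changes were planted only in genes averaging at least 50, above ANKRD1. All genes had 1 dispersion (0.004) and no library deviated with GC content, so such cases were not covered. The members, lists and tests were chosen with earlier results of these data known. By rule all members and up to 4 genes with the smallest p of each list were named. TEAD4, VGLL1, WISP1, WISP3 and, from the target list, F3, FJX1, FOXF2, GADD45A, CCDC80 and RBMS3 were named after their values were seen. Alternatives were 3 other scalings, 2 filters, pseudocounts of 0.1 and 10, a replicate block, each library left out, edgeR 4.0.16, DESeq2 1.42.0 and removal of GC and length trends (the GC correction). Settings for pathway genes and 4 of the 6 ratios were added after values were seen. Positions and exon lengths are from GENCODE 29 (GRCh38), matched by identifier, and promoters from RefSeq (GRCh38.p14). Promoters of CYR61 and TEAD1 were not used here. The first 50 transcribed bases of 10 of 12 member promoters were found in GENCODE transcripts of the same strand. Those of YAP1 and LATS2 were not.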

Additional observations from a re-analysis of the deposited data

How the results depend on the processing

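The AJUBA call and its direction held in all 17 alternatives. The number of members called higher was 0 with a filter at 5 CPM, which drops ANKRD1, beside 19.5% of all genes tested there. It was also 0 with DESeq2 (ANKRD1 1.05, adjusted p = 0.0687), beside 8.65%. Members called lower numbered 2 with that filter (YAP1 -0.13, adjusted p = 0.0454), beside 20.7% of all genes tested there. They numbered 3 under the GC correction (YAP1 -0.15, LATS2 -0.12), beside 22.2%. When 1 library was left out they numbered 1 to 3, beside 13.6% to 21.7%. There YAP1 ran from -0.17 to -0.11 and LATS2 from -0.19 to -0.11. The sign of CYR61 turned at 0.00683 with upper-quartile scaling, 0.0194 with library-size scaling, 0.0227 with edgeR, 0.020 with DESeq2 and 0.00367 under the GC correction, and it ran from -0.091 to 0.077 when 1 library was left out. WWTR1 ran from -0.013 to 0.079 when 1 library was left out, its sign turning without silymarin replicate 2, and AMOTL1 ran from -0.0099 (without silymarin replicate 3) to 0.0497. Apart from constructions that drop genes or libraries, the cause was not tested. Over all genes DESeq2 called 1543 higher and 1946 lower, against 2764 and 3148. No scaling moved the median of all genes by over 0.1. The directions of the ratios of YAP1 to WWTR1 and CTGF to CYR61 held in their 8 alternatives each.

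Replicate numbers did not pair the libraries: same-numbered deviations correlated at -0.039, 0.042 and 0.023 over genes. With the replicate block 2630 genes (15.2%) were higher and 3048 (17.6%) lower. Of the members 1 was higher (ANKRD1, adjusted p = 0.00344) and 1 lower (AJUBA, adjusted p = 0.000432), so no member's call changed. Of the other pathway genes named, FOXF2 was no longer called with the block (adjusted p = 0.0634) and WISP2 was called higher (adjusted p = 0.0357). Depth limits ANKRD1 most, and intervals on so few reads do not cover the steps before counting.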

Other observations

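The genes whose log2 values ran most like the called members over the 6 libraries are given as a description. With 2 groups of 3, many genes run alike. For ANKRD1 these were BX322557.10, LIFR (a cytokine receptor) and RP11-27I1.4, with Pearson r of 0.998, 0.998 and 0.996, among 13496 genes compared, of which 133 had r over 0.95. Their log2 fold changes were 0.29, 0.50 and 0.28. For AJUBA they were PTPN9 (a tyrosine phosphatase), ACSF2 and INPP5B, with r of 0.998, 0.994 and 0.993 and log2 fold changes of -0.065, -0.26 and -0.20, and 115 of 13495 genes had r over 0.95.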
